A study of Mus musculus with 8 samples.

Results

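The genes described here encode the machinery that brings secreted and membrane proteins into the endoplasmic reticulum (ER) and the coats and receptors that carry them between the ER and the Golgi apparatus. Members were chosen by gene symbol from the annotation of the array: the Sec11 to Sec63 genes, Ssr1 to Ssr4, the signal peptidase genes Spcs1 to Spcs3, the signal recognition particle (SRP) and its receptor, the COPI coat genes, the p24 (Tmed) genes, Arf1 to Arf6 and the KDEL receptors, without Srpk and Cops genes. The symbol rule found 98 of 25697 probes, which belong to 64 of 16593 genes. Of the 64 genes, 52 had a probe bright enough to be tested and 12 did not.

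The study measured gene expression in the livers of male mice of the inbred strain A/J on 8 Illumina BeadArrays, 2 per group. The groups were CCl4 alone, CCl4 with erlotinib 2 mg, CCl4 with erlotinib 5 mg, and oil vehicle. Carbon tetrachloride (CCl4) injures hepatocytes once their P450 enzymes have activated it, and repeated dosing leaves scar tissue. Erlotinib blocks EGF receptor kinase activity. Gavage of 40% CCl4 or of vehicle took place 3 times weekly over 18 weeks, and 3 of the 4 groups received CCl4. By the protocol the animals were killed in week 19, 1 week after dosing stopped, while each sample's source reads week 18. The erlotinib doses are given in mg without a weight base, and neither their schedule nor the age of the animals is stated in the labels. Liver outside tumours was the source of the RNA. Sample titles carry the code OO for vehicle and CT for all other groups, so whatever the codes stand for cannot be told apart from CCl4 treatment when CCl4 is compared with vehicle. The same limit holds when the erlotinib groups are compared with vehicle. The labels do not say whether the arrays of a group were separate animals, so p-values measure the spread between these arrays, which may be technical.

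A protein that carries a signal sequence is met on the ribosome by SRP, which docks at the SRP receptor on the ER. The chain then passes through the Sec61 channel, helped by the translocon-associated protein (TRAP) complex, and signal peptidase cuts the signal sequence off. Folded cargo leaves the ER in COPII vesicles, with p24 proteins among the cargo receptors, while COPI vesicles, recruited by the GTPase Arf1, bring escaped ER proteins back, held by the KDEL receptor. Hepatocytes use this route for the plasma proteins that the liver releases.

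Median intensity per array was 99.8 to 130 before normalization, and 23.0% to 26.1% of probes stood above background. Arrays of a group correlated at 0.984 to 0.988 across genes, which are not independent replicates. Between arrays of different groups the correlation was 0.933 to 0.988, so the ranges overlapped. None of 7 measured hepatocyte markers, among them Alb and Ttr, was under background on every array. Levels below are log2 intensities after normalization, and a difference is the mean of 1 group minus that of another, given ± SE from a limma fit of all 8 arrays. A gene was called changed at a limma adjusted p (Benjamini-Hochberg, over 11022 genes) under 0.05. Precision is limited by having 2 arrays in a group, and levels of different probes are not compared.

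With CCl4 alone, members rose at most steps of the route after quantile normalization. Of the 52 members tested, 17 rose and 0 fell against vehicle, where 12.7% of all genes tested changed, 6.75% rose and 5.93% fell. The risers were Srprb, Sec61a1, Sec61b, Ssr2, Ssr3, Ssr4, Spcs1, Spcs3, Sec13, Sec24c, Sec22b, Tmed3, Tmed9, Cope, Copz1, Arf1 and Arf2. Their rises ran from 0.36 to 1.24, or 1.29-fold to 2.36-fold. The median difference of the 52 members was 0.23, beside -0.0025 over all genes tested. The arrays of the 2 groups did not overlap for 35 of the 52 members, where 48.6% of all genes were without overlap. Members are bright more often than other genes, and bright probes are called more often: of 32 members above background on all 8 arrays 17 rose and 0 fell, beside 15.9% that rose and 15.1% that fell (31% changed) among 3660 such genes. With median scaling in place of quantile normalization 6 members rose (4.36% of all genes were called): Sec61a1, Sec61b, Srprb, Ssr2, Tmed3 and Tmed9. No gene of signal peptidase, the COPII or COPI coat, the Sec22 group or the ARF group was among them. Without vehicle replicate 2 the count was 11.

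Erlotinib livers showed lower levels than livers given CCl4 alone at many of the steps. With the doses pooled, 20 of 52 members fell and 1, Copz2, rose against CCl4 alone, where 11.4% of all genes changed, 6.01% fell and 5.35% rose. At 2 mg 16 fell and 1 rose, where 8.64% of all genes changed, 4.45% fell and 4.18% rose. At 5 mg 18 fell and 0 rose, where 9.06% changed, 4.65% fell and 4.41% rose. The pooled erlotinib arrays and the CCl4 arrays did not overlap for 29 of the 52 members, where 27.2% of all genes were without overlap. The comparisons of CCl4 with vehicle and of erlotinib with CCl4 share the CCl4 arrays, so a chance high value there moves both. The median difference with both doses was -0.19, beside -0.0003 over all genes. Bright genes were called more often here too. With only probes above background on at least 2 arrays and the doses pooled, 21 of 38 members fell and 1 rose. In that setting 23.3% of all genes were called. With median scaling 6 members were called (2.86% of all genes): Sec61a1, Spcs3, Srprb, Ssr2, Tmed3 and Tmed9. Without CCl4 replicate 2 the count was 13.

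**Figure D1:**
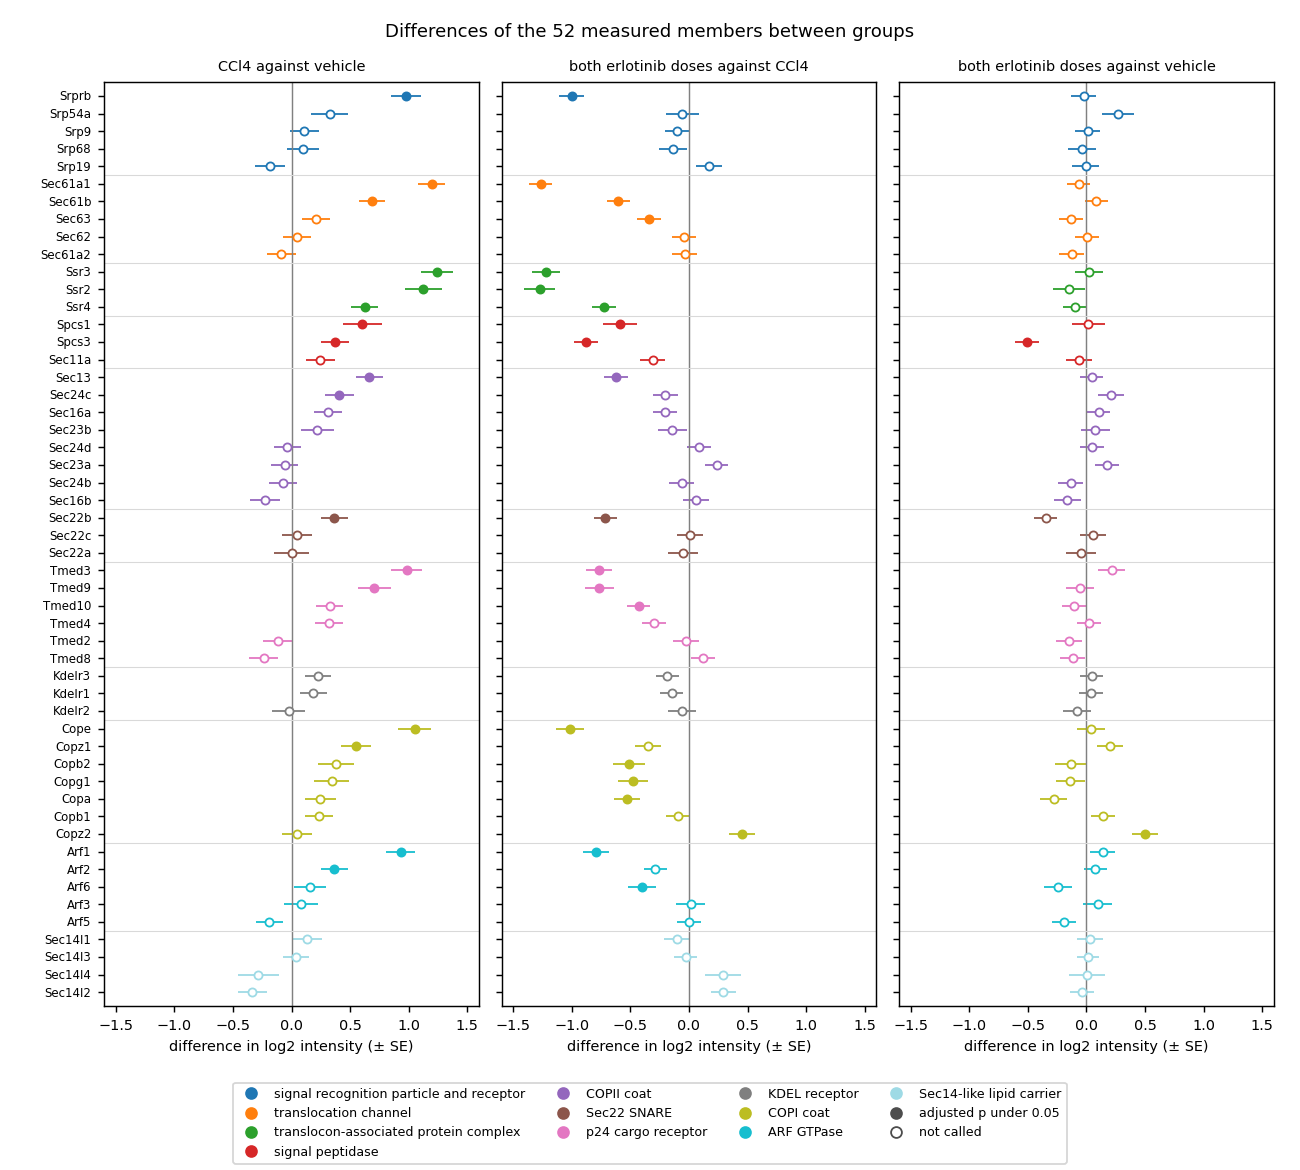
Difference in log2 intensity (± SE) of each of the 52 tested members, in rows by role group, for CCl4 against vehicle, both erlotinib doses against CCl4 and both doses against vehicle; filled points are called at an adjusted p under 0.05. The 17 filled points of the first panel lie right of 0, 20 of the 21 in the second lie left of 0, and the third holds 2.

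Against vehicle, erlotinib livers differed in 2 of 52 members, where 3.53% of all genes tested changed, 1.95% higher and 1.58% lower. The title codes also differ between these groups. The groups did not overlap for 9 of the 52 members, where 23.1% of all genes were without overlap. The called members were Spcs3, which was lower, and Copz2, which was higher. The median difference of the members was 0.0037 and the whole range was -0.51 to 0.50. The comparison rests on few arrays: the count was 0 without either vehicle array, 1 without erlotinib 2 mg replicate 1 or erlotinib 5 mg replicate 2, 1 with probes averaged per gene and 0 with median scaling.

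The 2 doses were not told apart. Erlotinib 5 mg against 2 mg gave 0 calls among 52 members by limma and 1 at an unadjusted p under 0.05, where 0.0181% of all genes were called and 4.58% had such an unadjusted p. Differences of 5 mg from 2 mg lay between -0.23 and 0.29. For the 21 members called with both doses against CCl4, the 95% confidence intervals of the difference between doses lay within -0.45 and 0.47, so differences between the doses of up to that size could not be resolved.

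**Figure D2:**
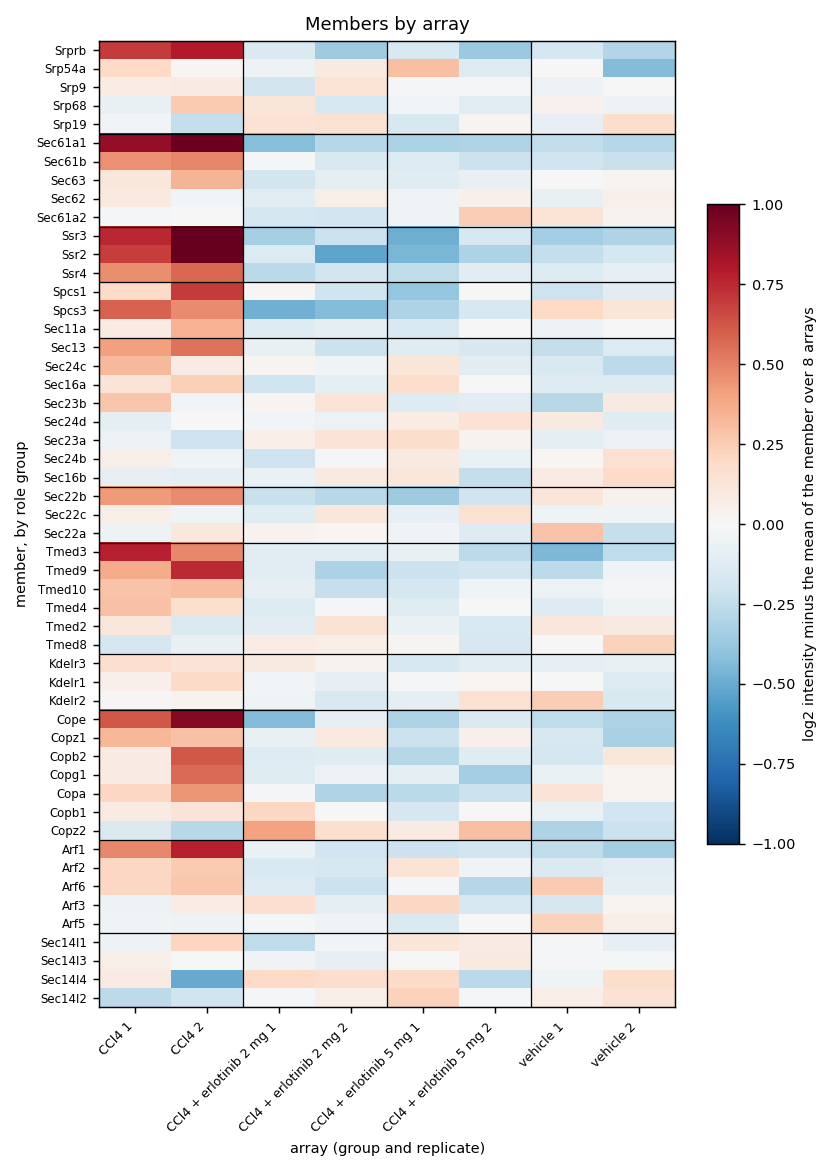
Log2 intensity of each of the 52 members on each of the 8 arrays, minus the mean of that member, with members in rows by role group and arrays in columns by group; red is above and blue below the mean. For each of the 17 risers both CCl4 cells are above the mean, and between the erlotinib and vehicle columns Spcs3 and Copz2 are the members called.

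The promoters of 4 risers are shown because these genes come from different steps of the route and moved together; each is the riser with the largest difference of its role group, among those with a single promoter in the RefSeq table (build GRCm38.p6), and not every promoter that this choice gives is shown. Each runs from 250 bases before to 50 after the start of the gene. Capitals mark 3 motifs on either strand: CCACG, which is the second part of the ER stress element bound by ATF6 in mammalian cells, GACGTG, the core of the element bound by XBP1, and the cAMP response element TGACGTCA. The first and second can overlap, as in CCACGTC, and the longer TGACGTGG holds both.
Cope (chr8:70302517-70302816, plus strand): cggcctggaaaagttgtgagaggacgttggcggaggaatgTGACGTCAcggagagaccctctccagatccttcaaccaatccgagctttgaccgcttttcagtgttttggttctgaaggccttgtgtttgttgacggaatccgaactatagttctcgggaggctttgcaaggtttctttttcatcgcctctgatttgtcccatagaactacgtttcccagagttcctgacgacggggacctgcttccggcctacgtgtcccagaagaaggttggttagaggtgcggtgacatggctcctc
Tmed3 (chr9:89704994-89705293, minus strand): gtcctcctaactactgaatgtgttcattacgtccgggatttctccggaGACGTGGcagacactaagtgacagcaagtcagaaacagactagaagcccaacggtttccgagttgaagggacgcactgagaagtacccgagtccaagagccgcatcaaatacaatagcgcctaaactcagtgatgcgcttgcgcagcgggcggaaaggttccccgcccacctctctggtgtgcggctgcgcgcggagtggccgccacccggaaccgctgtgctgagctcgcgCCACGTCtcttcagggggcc
Srprb (chr9:103202016-103202315, minus strand): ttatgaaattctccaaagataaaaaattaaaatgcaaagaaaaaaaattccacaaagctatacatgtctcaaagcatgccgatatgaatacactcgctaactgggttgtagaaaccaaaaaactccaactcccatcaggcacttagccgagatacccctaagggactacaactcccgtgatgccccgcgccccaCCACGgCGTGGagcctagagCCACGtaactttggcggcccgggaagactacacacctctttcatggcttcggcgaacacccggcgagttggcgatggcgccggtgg
Sec13 (chr6:113740632-113740931, minus strand): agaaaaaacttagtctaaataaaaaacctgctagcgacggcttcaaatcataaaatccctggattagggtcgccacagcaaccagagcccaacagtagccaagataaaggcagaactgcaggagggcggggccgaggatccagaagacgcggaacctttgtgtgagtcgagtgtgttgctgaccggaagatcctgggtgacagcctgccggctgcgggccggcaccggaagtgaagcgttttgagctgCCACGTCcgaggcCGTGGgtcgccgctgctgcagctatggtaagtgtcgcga

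The Tmed3 promoter held 2 GACGTG cores and the Sec13 promoter 1, and each held 2 CCACG sites. The Srprb promoter held 3 CCACG sites and no core. The Cope promoter held neither motif and 1 cAMP response element. Of the 64 member genes, 53 had a promoter in the table. The core GACGTG lay in the promoters of 19 of the 53 genes (35.8%), beside 8.82% of 13335 genes on the array with a promoter and 6.38% of 32851 promoters in all. It lay in 5 of 14 risers and in 14 of 39 other members with a promoter. Those other members include genes too dim to test, among them Arf4, Srp14, Srpr and Ssr1. They also include genes under background on every array, among them Copb1, Kdelr3 and Sec24d. The shares therefore do not compare risers with genes shown not to rise. The longer element TGACGTGG was in 7 of 53 member genes (13.2%), beside 0.945% of the genes on the array: Arf1, Copb1, Copb2, Kdelr3, Sec16b, Sec23a and Sec24d. Of these Arf1 rose, while Copb1, Kdelr3 and Sec24d were under background on every array. Sec16b and Sec23a were above background on 4 and 2 arrays. CCACG was in 36 of 53 member genes, beside 42.9% of the genes on the array, and the full ER stress element, CCAAT and CCACG with 9 bases between them, in 0 of 53, beside 0.135%. The cAMP response element was in 1 of 53 member genes (1.89%), beside 2.7% of the genes on the array. Member promoters held 60.5% G and C and all promoters 53.8%. A match describes the letters and is no measure of binding.

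Counts within a role group rest on 3 to 8 tested genes. Beside them, 12.7% of all genes changed with CCl4 and 11.4% with both erlotinib doses against CCl4. Among the genes of SRP and its receptor, the receptor's beta subunit was the 1 that changed. Srprb, the membrane GTPase that anchors the receptor, stood at 8.30 and 8.39 on the CCl4 arrays, 7.45 and 7.24 with erlotinib 2 mg, 7.45 and 7.23 with 5 mg, and 7.42 and 7.31 with vehicle. Both CCl4 arrays lay above all others, and the erlotinib and vehicle arrays overlapped. Srprb was 0.98 ± 0.13 higher with CCl4 than with vehicle (limma adjusted p 3.62e-05) and -1.002 ± 0.11 with both erlotinib doses against CCl4 (adjusted p 1.03e-05). The SRP subunits did not pass: Srp54a, whose protein binds signal sequences, was at 0.32 ± 0.16 with CCl4 (adjusted p 0.262) and Srp68 at 0.10 ± 0.14 (adjusted p 0.800). The Srp54a probe was above background on 4 of 8 arrays and on 0 of the 2 vehicle arrays, and the Srp68 probe on all 8. Probes of Srp9 and Srp19 were under background on every array, and those of Srp14, Srp72 and the receptor's alpha subunit Srpr were too dim to test. A second Srprb probe, above background on 7 arrays, gave 0.34 with CCl4 (adjusted p 0.145 over 14438 probes) and -0.44 with erlotinib (adjusted p 0.0207).

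Of the 5 tested genes of the translocation channel, 2 rose with CCl4 and 3 fell with erlotinib, where 6.75% of all genes rose and 6.01% fell. Sec61a1, which forms the pore, stood at 9.44 and 9.54 on the CCl4 arrays, 8.13 and 8.27 with erlotinib 2 mg, 8.24 and 8.26 with 5 mg, and 8.32 and 8.27 with vehicle. The CCl4 arrays did not overlap with any other group. It was 2.29-fold higher with CCl4 than with vehicle (1.20 ± 0.11, adjusted p 1.81e-06), -1.26 ± 0.10 with both erlotinib doses against CCl4 (adjusted p 4.66e-07) and -0.07 ± 0.10 against vehicle. Sec61b, the small tail-anchored subunit, stood at 8.94 and 8.97 on the CCl4 arrays, 8.47 and 8.33 with erlotinib 2 mg, 8.34 and 8.26 with 5 mg, and 8.28 and 8.25 with vehicle. Again both CCl4 arrays were above the rest; Sec61b rose by 0.69 ± 0.11 with CCl4 (adjusted p 0.000441) and fell by 0.60 ± 0.10 with erlotinib (adjusted p 0.000448). A second, dimmer Sec61b probe gave 0.20 and -0.32 and passed in neither comparison (adjusted p 0.445 and 0.0812 over probes).

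Other channel genes moved little. Sec63, whose J domain brings the chaperone BiP to the channel, was at 0.21 ± 0.12 with CCl4 (adjusted p 0.341) and fell by 0.34 ± 0.10 with erlotinib against CCl4 (adjusted p 0.0385). That call ended in 11 of 18 other settings, 7 of them with an array left out (adjusted p up to 0.448). A second Sec63 probe, above background on all 8 arrays, gave 0.15 with CCl4 and -0.14 with erlotinib. It passed in neither comparison (limma adjusted p 0.647 and 0.616 over probes). Sec61a2, a close relative of the pore subunit, had values of -0.09 ± 0.12 and -0.04 ± 0.11 in the same comparisons, and the Sec62 probe was under background on every array.

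All 3 measured subunits of the TRAP complex, which binds the channel and helps some signal sequences to open it, rose with CCl4. Ssr3, the gamma subunit, stood at 11.75 and 12.08 on the CCl4 arrays, 10.66 and 10.78 with erlotinib 2 mg, 10.50 and 10.83 with 5 mg, and 10.65 and 10.69 with vehicle. Its rise of 1.24 ± 0.14 with CCl4, 2.36-fold, was the largest of the 52 members (adjusted p 9.14e-06). Ssr2, the beta subunit, stood at 10.36 and 10.81 on the CCl4 arrays, 9.53 and 9.14 with erlotinib 2 mg, 9.21 and 9.36 with 5 mg, and 9.43 and 9.49 with vehicle. For both genes the CCl4 arrays lay above every other array. Ssr2 rose by 1.13 ± 0.16 (adjusted p 7.54e-05) and Ssr4, the delta subunit, by 0.63 ± 0.12 (adjusted p 0.00114). With both erlotinib doses against CCl4 the differences were -1.22 ± 0.12 for Ssr3, -1.27 ± 0.13 for Ssr2 and -0.72 ± 0.10 for Ssr4, with adjusted p-values of 4.60e-06, 8.24e-06 and 9.75e-05, and against vehicle they were 0.02, -0.15 and -0.10. The probe of Ssr1, the alpha subunit, was too dim to test.

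Signal peptidase gave the 1 member called lower with erlotinib than with vehicle. Spcs3, an accessory subunit with a lumenal domain, stood at 9.40 and 9.29 on the CCl4 arrays, 8.33 and 8.38 with erlotinib 2 mg, 8.50 and 8.66 with 5 mg, and 9.02 and 8.94 with vehicle. The 4 groups did not overlap, with CCl4 highest and erlotinib lowest. Erlotinib livers were -0.88 ± 0.10 against CCl4 (adjusted p 1.64e-05) and -0.51 ± 0.10 against vehicle (adjusted p 0.00697). The call against vehicle ended without vehicle replicate 1 or 2 (adjusted p 0.157 and 0.0632) and with median scaling (0.412). Between CCl4 and vehicle Spcs3 differed by 0.37 ± 0.12 (adjusted p 0.0461), close to the threshold and lost without any 1 of 7 arrays (adjusted p up to 0.248).

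Spcs1, a further accessory subunit, stood at 9.43 and 9.94 on the CCl4 arrays, 9.25 and 9.04 with erlotinib 2 mg, 8.85 and 9.24 with 5 mg, and 9.03 and 9.13 with vehicle. The CCl4 arrays were the highest but far apart. Spcs1 rose by 0.60 ± 0.16 with CCl4 (adjusted p 0.0196). That rise was no longer called without CCl4 replicate 2 or either vehicle array (adjusted p 0.0783 to 0.284) and with the authors' values (0.0720). Spcs1 fell by 0.59 ± 0.14 with erlotinib (adjusted p 0.0100), which was not called without CCl4 replicate 2 (0.311) or with the authors' values (0.0539). Sec11a, a catalytic subunit, was at 0.24 ± 0.12 and -0.31 ± 0.11 and passed in neither. Probes of Spcs2 and Sec11c were too dim to test.

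**Figure D3:**
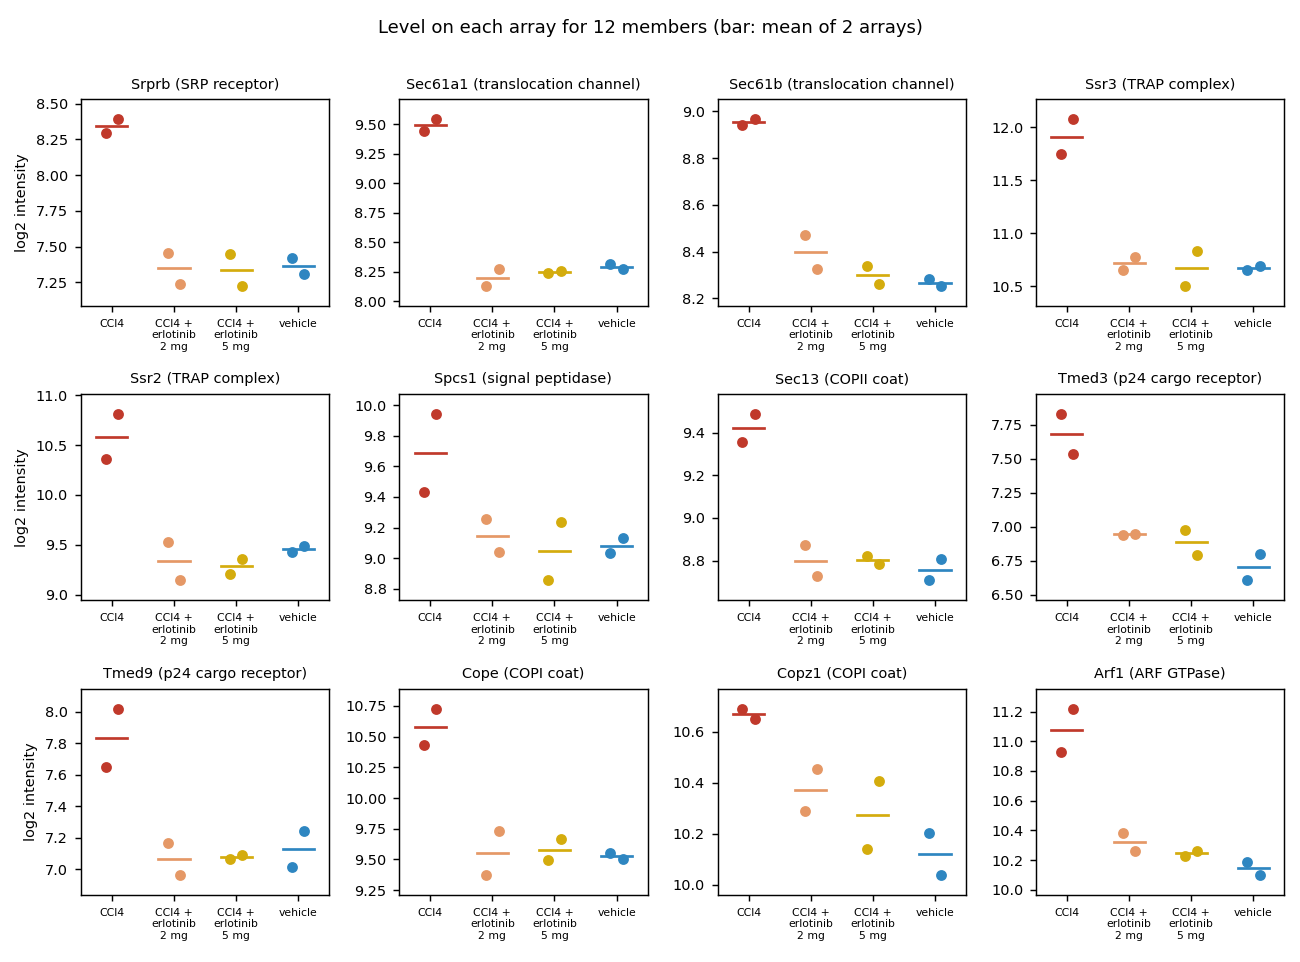
Log2 intensity on each array (points) and the mean of 2 arrays (bars) for 12 members with large rises, at most 2 per role group, in CCl4, CCl4 with erlotinib 2 mg, CCl4 with erlotinib 5 mg and vehicle livers; each panel has its own scale, which does not start at 0. In every panel both CCl4 points lie above the other 6 points.

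In the COPII coat, 2 of 8 tested genes (25%) rose with CCl4 and the median was 0.09. Of all genes 12.7% changed and 6.75% rose, and of genes above background on all 8 arrays 31% changed and 15.9% rose. Sec13, part of the outer cage of the coat and also of the nuclear pore, stood at 9.36 and 9.49 on the CCl4 arrays, 8.87 and 8.73 with erlotinib 2 mg, 8.82 and 8.78 with 5 mg, and 8.71 and 8.81 with vehicle. Only the CCl4 arrays stood apart. Sec13 rose by 0.66 ± 0.12 with CCl4 (adjusted p 0.000737) and fell by 0.62 ± 0.10 with erlotinib (adjusted p 0.000435). Sec24c, a cargo-binding subunit, rose by 0.41 ± 0.13 (adjusted p 0.0437), lost without CCl4 replicate 1 (0.328), either vehicle array or either erlotinib 2 mg array, and was at -0.20 ± 0.11 with erlotinib (adjusted p 0.353). Sec16a, which organises ER exit sites, did not pass with CCl4 (0.31 ± 0.12, adjusted p 0.110). The inner coat genes Sec23a, Sec24b and Sec24d were at -0.06, -0.07 and -0.04, of which the Sec24b probe was above background on all arrays. Probes of Sec23ip and Sec24a were too dim to test.

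Among the Sec22 genes, Sec22b, a SNARE of ER and Golgi vesicles, changed in both comparisons. Its levels were 8.73 and 8.78 on the CCl4 arrays, 8.09 and 8.03 with erlotinib 2 mg, 7.95 and 8.11 with 5 mg, and 8.43 and 8.35 with vehicle. The erlotinib arrays lay below both vehicle arrays. The differences were -0.71 ± 0.10 for erlotinib against CCl4 (adjusted p 0.000106), -0.35 ± 0.10 for erlotinib against vehicle (adjusted p 0.0694) and 0.36 ± 0.11 for CCl4 against vehicle (adjusted p 0.0478), the last lost without any 1 of 7 arrays (adjusted p up to 0.262). Sec22a and Sec22c were above background on 1 and 2 arrays, with values of 0.0013 and 0.05 with CCl4.

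Of 6 tested p24 genes, whose products select cargo for ER and Golgi vesicles, 2 rose with CCl4 and 3 fell with erlotinib. Of all genes 6.75% rose and 6.01% fell in these comparisons. Tmed3 stood at 7.83 and 7.53 on the CCl4 arrays, 6.94 and 6.95 with erlotinib 2 mg, 6.98 and 6.79 with 5 mg, and 6.60 and 6.80 with vehicle. Tmed9 stood at 7.65 and 8.02 on the CCl4 arrays, 7.16 and 6.96 with erlotinib 2 mg, 7.06 and 7.09 with 5 mg, and 7.01 and 7.24 with vehicle. For both genes the CCl4 arrays were above the others, though they also stood apart from each other. With CCl4 Tmed3 rose by 0.98 ± 0.13 (adjusted p 5.22e-05) and Tmed9 by 0.71 ± 0.14 (adjusted p 0.00194), and with erlotinib against CCl4 they fell by 0.77 ± 0.11 and 0.76 ± 0.12. Tmed10 did not pass with CCl4 (0.33 ± 0.12, adjusted p 0.0852) and fell by 0.43 ± 0.10 with erlotinib (adjusted p 0.00815). Without CCl4 replicate 2 that call ended (0.0811). The Tmed4 probe gave 0.32 and -0.30 and passed in neither, Tmed2 and Tmed8 were under background, and Tmed5, Tmed6 and Tmed11 were too dim to test.

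The KDEL receptors, which return escaped ER chaperones, had no called member of 3. With 12.7% of all genes called with CCl4, a count of 0 in so few genes says little. Kdelr2, above background on all arrays, stood at 7.53 and 7.56 with CCl4, 7.47 and 7.36 with erlotinib 2 mg, 7.43 and 7.67 with 5 mg, and 7.77 and 7.36 with vehicle. The CCl4 and vehicle arrays overlapped, with a difference of -0.02 ± 0.14. Kdelr1 was above background on 1 array and Kdelr3 on 0.

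Of 7 tested COPI coat genes 2 rose with CCl4, where 6.75% of all genes rose, and the median was 0.34. Cope, the epsilon subunit, stood at 10.43 and 10.73 on the CCl4 arrays, 9.37 and 9.73 with erlotinib 2 mg, 9.50 and 9.66 with 5 mg, and 9.55 and 9.50 with vehicle. Copz1, the zeta-1 subunit, stood at 10.69 and 10.65 on the CCl4 arrays, 10.29 and 10.45 with erlotinib 2 mg, 10.14 and 10.41 with 5 mg, and 10.20 and 10.04 with vehicle. Both had the CCl4 arrays on top. Cope rose by 1.05 ± 0.14 with CCl4 (adjusted p 5.37e-05) and fell by 1.01 ± 0.12 with erlotinib (adjusted p 2.57e-05). Copz1 rose by 0.55 ± 0.13 (adjusted p 0.00656), lost without vehicle replicate 2 (0.102), and missed with erlotinib (-0.35 ± 0.11, adjusted p 0.0516).

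With erlotinib against CCl4, 3 further subunits of the COPI coat fell. The alpha subunit Copa was at -0.53 ± 0.11 (adjusted p 0.00400), Copb2, the beta-prime subunit, at -0.51 ± 0.14 (adjusted p 0.0189) and the gamma subunit Copg1 at -0.48 ± 0.13 (adjusted p 0.0201). All 3 calls ended without CCl4 replicate 2, with adjusted p-values of 0.118, 0.476 and 0.472; that of Copb2 also ended without erlotinib 5 mg replicate 1 (0.0655) and that of Copg1 without erlotinib 2 mg replicate 1 or 5 mg replicate 2. With CCl4 the same genes had 0.25, 0.38 and 0.34 and did not pass, and the Copb1 probe was under background on every array.

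Copz2, which encodes the alternative zeta subunit, was the exception. It stood at 7.78 and 7.64 on the CCl4 arrays, 8.32 and 8.08 with erlotinib 2 mg, 8.004 and 8.22 with 5 mg, and 7.61 and 7.71 with vehicle. All 4 erlotinib arrays were above all CCl4 and vehicle arrays. Erlotinib livers were 0.45 ± 0.11 higher than CCl4 livers (adjusted p 0.0121) and 0.50 ± 0.11 higher than vehicle livers (adjusted p 0.0168), while CCl4 and vehicle differed by 0.05 ± 0.13. A second bright Copz2 probe gave 0.31 against CCl4 (adjusted p 0.0629 over probes). The first call ended without CCl4 replicate 2 (0.170) and the second without either vehicle array (0.249 and 0.0978), erlotinib 2 mg replicate 1 or 5 mg replicate 2; with probes averaged both ended (0.134 and 0.0972).

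Of 5 tested ARF GTPases, 2 rose with CCl4, where 6.75% of all genes rose. Among them was Arf1, which recruits the COPI coat to membranes. Arf1 stood at 10.93 and 11.22 on the CCl4 arrays, 10.38 and 10.26 with erlotinib 2 mg, 10.23 and 10.26 with 5 mg, and 10.19 and 10.10 with vehicle. Here the erlotinib arrays lay between the other groups, close to vehicle. It rose by 0.93 ± 0.12 with CCl4 (adjusted p 5.40e-05) and fell by 0.79 ± 0.11 with erlotinib (adjusted p 8.28e-05), and the difference of erlotinib from vehicle was 0.14 ± 0.11. Arf2 rose by 0.36 ± 0.11 (adjusted p 0.0469), lost without any 1 of 7 arrays (adjusted p up to 0.201). Arf6, which acts at the plasma membrane, fell by 0.40 ± 0.12 with erlotinib (adjusted p 0.0353), lost without either CCl4 array, either erlotinib 2 mg array or erlotinib 5 mg replicate 2 (adjusted p up to 0.258). Arf3 and Arf5 were at 0.08 and -0.19 with CCl4, and the Arf4 probe was too dim to test. ARF genes are close in sequence, so their probes may bind transcripts of relatives.

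The Sec14-like genes, which the symbol rule takes in but whose products carry lipids rather than coat vesicles, had 0 called of 4. With 12.7% of all genes called with CCl4, that count too says little. Sec14l4 stood at 8.07 and 7.49 with CCl4, 8.19 and 8.17 with erlotinib 2 mg, 8.19 and 7.72 with 5 mg, and 7.96 and 8.17 with vehicle, and the CCl4 and vehicle arrays overlapped. The probes of Sec14l1, Sec14l2 and Sec14l3 were under background on every array.

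Bright probes of the same gene shared a direction and differed in size. For Cope the probe used, the brightest, gave 1.05 with CCl4, and 3 other probes, all above background on 8 arrays, gave 0.26, 0.49 and 0.28. Those at 0.26 and 0.28 did not pass (limma adjusted p 0.187 and 0.207 over probes). With erlotinib against CCl4 the Cope probes gave -1.01 for the probe used and -0.35, -0.36 and -0.35 for the others. The probe at -0.36 did not pass (limma adjusted p 0.0573 over probes). Tmed3 had 2 bright probes that both passed, at 0.98 and 0.79 with CCl4 and -0.77 and -0.72 with erlotinib. Spcs1 also had 2 bright probes that passed in both comparisons, the second at 0.50 and -0.40. In these genes, and in Sec61b, the probe with the highest mean showed the larger difference.

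**Figure D4:**
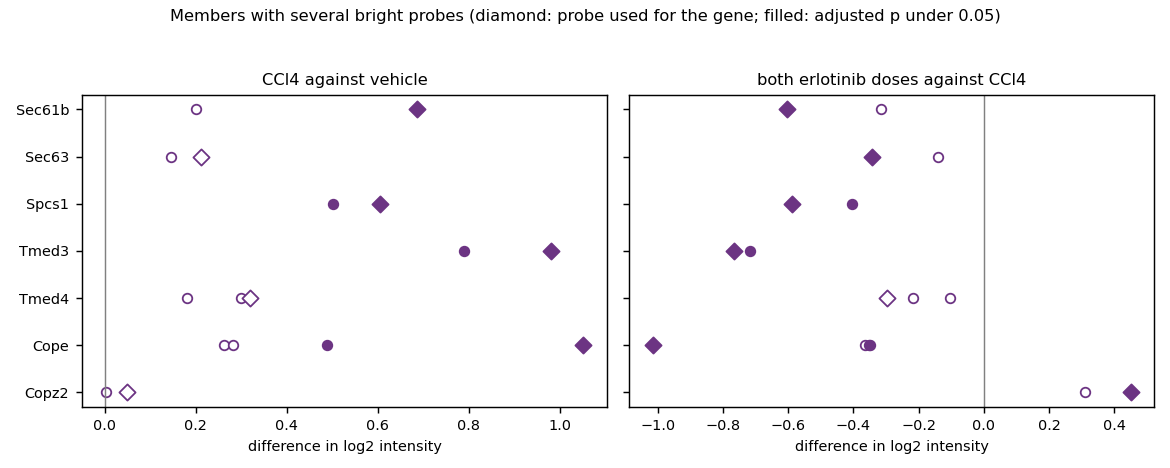
Difference in log2 intensity for every probe above background on all 8 arrays, in 7 members with more than 1 such probe, for CCl4 against vehicle and both erlotinib doses against CCl4; diamonds mark the probe used for the gene and filled marks an adjusted p under 0.05. For Cope the diamond lies at 1.05 and the circles at 0.26 to 0.49.

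Genes that work with the members were counted by complex, beside 12.7% of all genes called with CCl4 and 11.4% with both erlotinib doses against CCl4. Among the 3660 genes above background on all 8 arrays, 31% were called with CCl4. Of 8 measured oligosaccharyltransferase genes, which add sugar chains to proteins as they enter the ER, 7 rose with CCl4 and 7 fell with erlotinib against CCl4, with medians of 0.96 and -0.71. Ost4 rose by 1.26 ± 0.12 (adjusted p 2.27e-06), Krtcap2 by 1.25 ± 0.11 (adjusted p 8.94e-07) and Ostc by 1.14 ± 0.13 (adjusted p 1.14e-05). Against vehicle, erlotinib livers differed in 1 of the 8, Ost4 at 0.46 ± 0.11 (adjusted p 0.0222). Of 8 genes of the ER membrane protein complex, which inserts other membrane proteins, 0 rose and 1 fell with CCl4 (Emc2, -0.61 ± 0.14, adjusted p 0.00819), and 0 were called with erlotinib by limma (3 at an unadjusted p under 0.05).

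Of 11 other translocon partners 3 rose with CCl4 and 4 fell with erlotinib, led by Nomo1 (0.82 and -0.93) and Tram1 (0.71 and -0.87). Of 6 genes of tail-anchored protein insertion, 2 rose with CCl4 and 2 fell with erlotinib: Get4 (0.90 and -0.74) and Get3 (0.53 and -0.47). Of 17 genes of COPII assembly and cargo receptors, 3 rose and 1 fell with CCl4, and 4 fell and 1 rose with erlotinib. The paralogs of the GTPase that starts the COPII coat went opposite ways with CCl4: Sar1a rose by 0.53 ± 0.12 (adjusted p 0.00553), while Sar1b was at -0.56 ± 0.16 (adjusted p 0.0318) and 0.81 ± 0.14 with erlotinib (adjusted p 0.000865). Of 9 COPI and ARF regulators 1 rose with CCl4 (Arfgap1, 0.49) and 1 fell with erlotinib (Arfgap2, -0.46), 11.1% in each comparison and so no more than among all genes. Of 28 tethers and SNAREs between ER and Golgi 6 rose and 1 fell with CCl4 and 6 fell with erlotinib, led by Trappc4 (0.999 and -0.69). The share called with CCl4 was 27.3% for other translocon partners, 23.5% for COPII assembly and cargo receptors and 25% for tethers and SNAREs. These shares lie between the 12.7% of all genes and the 31% of genes above background on all arrays. For tail-anchored protein insertion the share was 33.3%.

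Regulators of the capacity of this route and of the response to ER stress were mixed. Of 9 measured, 4 rose and 1 fell with CCl4, where 12.7% of all genes changed, 6.75% rose and 5.93% fell. Ddit3, the stress factor CHOP, rose by 2.52 ± 0.16 (adjusted p 1.97e-08) and Atf6b by 0.74 ± 0.12. Xbp1 rose by 0.58 ± 0.17 (adjusted p 0.0365) and Creb3 by 0.50 ± 0.13, and the liver factor Creb3l3 was at -0.56 ± 0.15 (adjusted p 0.0180). With erlotinib against CCl4, Ddit3 and Atf6b fell and Creb3l3 rose (-2.52, -0.83 and 0.48).

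**Figure D5:**
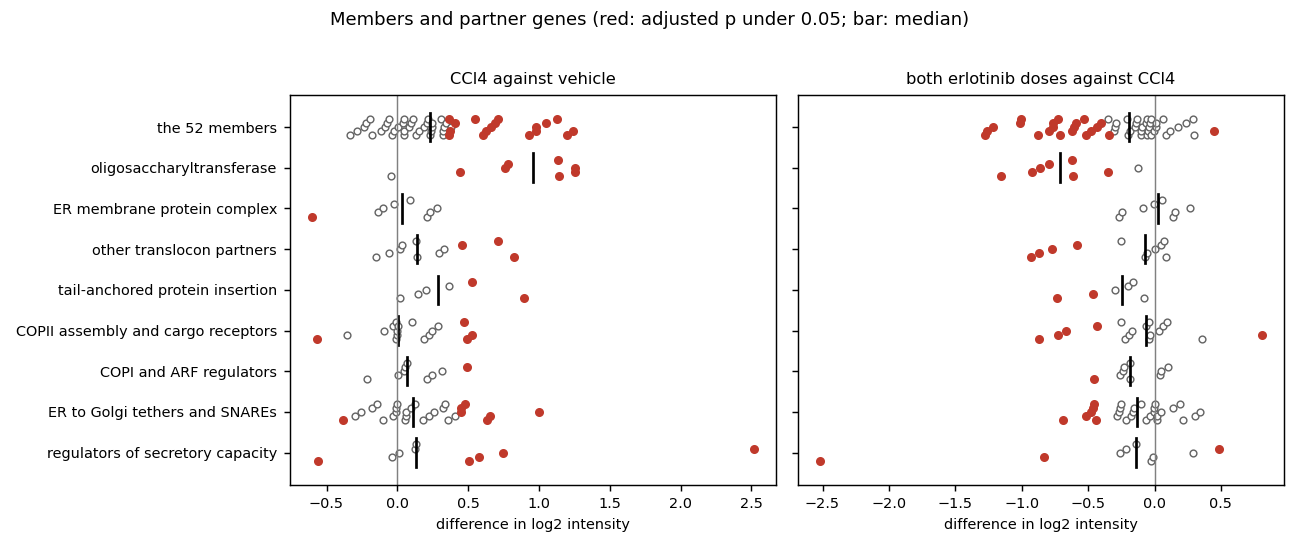
Difference in log2 intensity of the 52 members and of the measured genes of 8 partner lists, for CCl4 against vehicle and both erlotinib doses against CCl4; each point is a gene, red points are called at an adjusted p under 0.05 and the bar is the median of the list. Oligosaccharyltransferase has the median farthest from 0 in both panels, at 0.96 and -0.71.

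Some markers of other cells were called, beside 12.7% of all genes with CCl4 and 11.4% with both erlotinib doses against CCl4. Among all genes 6.75% rose and 5.93% fell with CCl4, and 6.01% fell with erlotinib. Of genes above background on all 8 arrays, 31% were called with CCl4. Of 6 tested macrophage markers 3 rose with CCl4 and 2 fell with erlotinib against CCl4, and their summed intensity was 2407 to 2472 with CCl4, 1294 to 1637 with erlotinib 2 mg, 1418 to 1439 with 5 mg and 973 to 1097 with vehicle. Sums add linear intensities of different probes, so a single marker with a large change can carry them. The differences of the 6 ran from 0.09 to 3.17 with CCl4 (median 0.78). With both erlotinib doses against CCl4 they ran from -2.81 to 0.0039 (median -0.30). Of 9 stellate cell and myofibroblast markers 5 rose with CCl4 and 1 fell with erlotinib, with sums of 1461 to 1940, 1413 to 1497, 1112 to 1258 and 952 to 963 in the same order of groups. With both erlotinib doses against CCl4, 11.1% of these markers were called, beside 11.4% of all genes. Col3a1 and Rgs5 were under background on every array. The differences of the 9 ran from -0.16 to 2.26 with CCl4 (median 0.56) and from -1.97 to 0.24 with both erlotinib doses against CCl4 (median -0.08). Plasma cells also hold much of this machinery: of 5 tested plasma cell markers 0 were called with CCl4 by limma (2 at an unadjusted p under 0.05), Mzb1, Pou2af1 and Prdm1 were under background on every array, and the sums were 478 to 491, 417 to 457, 448 to 467 and 422 to 425. Of 3 cholangiocyte markers 0 were called, and Sox9 and Cldn7 were under background on every array. Of 8 endothelial markers, 3 T and NK cell markers and 1 B cell marker 0 were called. Under background on every array were endothelial Lyve1 and Kdr, T and NK cell markers Cd4 and Nkg7, and the B cell marker Ms4a1. Such probes cannot show whether these cells changed. Of 3 neutrophil markers 1 rose with CCl4 and 0 were called with both erlotinib doses against CCl4. Mpo and Elane, also neutrophil markers, were under background on every array. Of 7 hepatocyte markers 2 fell with CCl4 (Alb and Serpina1c), a share of 28.6%, below the 31% of genes above background on all arrays. The sums of the 7 were 40862 to 43101 with CCl4, 45393 to 47022 with erlotinib 2 mg, 46379 to 47484 with 5 mg and 47295 to 52228 with vehicle. In whole liver, a change in the number of cells of a type and a change in RNA per cell cannot be told apart, and the part of these markers in the results was not tested.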

How the data were processed

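Total RNA from frozen liver was labelled and hybridised to Illumina BeadArrays, per the labels' protocols. The deposited non-normalized table holds probe intensity on a linear scale; a second deposited table holds intensity normalized by the authors by a method not given in the sources used here. Columns were matched to samples by title, and both tables ranked the probes of the same array alike (rank correlation at least 0.9996).

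Intensities were corrected with limma 3.58.1 (R 4.3.3) normexp, offset 50, quantile normalized and put on the log2 scale. Of 25697 probes, 23978 had 1 gene symbol and 1719 none. The filter passed probes whose mean exceeded the 40th percentile, and the brightest such probe stood for each of 11022 genes. Background was the 99th percentile of 1326 odorant, vomeronasal and trace amine receptor probes on each array. The 4 groups were fitted in 1 limma model (4 residual and 11.9 prior degrees of freedom), tested on simulated data. Replicates were numbered as listed, so the numbers pair nothing.

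The members, role groups, partner lists and tests were chosen with earlier results of these data known. Named genes were, per role group, up to 4 risers with the largest difference and the member with the smallest, all members called with erlotinib, and members whose probes disagree; partner lists give up to 3 called genes, except that all called regulators of secretory capacity are named, chosen after their values were seen. Promoters are from RefSeq; a further promoter that the rule chose is not reported here. Alternatives were other scalings, filters, probe rules and priors, and each array left out. Detection p-values and slides are not in the files used here.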

Additional observations from a re-analysis of the deposited data

How the results depend on the processing

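Median scaling in place of quantile normalization moved the counts most: 6 members were called for CCl4 against vehicle, 6 for both erlotinib doses against CCl4, 4 for 2 mg and 4 for 5 mg against CCl4, and 0 for both doses against vehicle, while calls over all genes dropped to 481, 315, 157, 169 and 63. The cause was not tested. The 6 members that kept their call with CCl4 were Sec61a1, Sec61b, Srprb, Ssr2, Tmed3 and Tmed9. With probes averaged per gene, 1 member was called for both doses against vehicle. With each array left out in turn, the counts ran from 11 to 15 for CCl4 against vehicle, 13 to 22 for both doses against CCl4, 13 to 20 for 2 mg, 13 to 18 for 5 mg, and 0 to 2 for both doses against vehicle; 5 mg against 2 mg stayed at 0 in all settings run. The authors' values, no background correction, both other filters, each probe on its own, an intensity trend with a robust prior, only the compared arrays and array weights kept each count of 17 or more within 1.5 times. Of the 17 risers with CCl4, 11 kept their call with every array left out, as did 13 of the 21 members called for both doses against CCl4, and 0 called members changed direction in any setting. No paired analysis was possible because the labels give no shared replicate numbers. A filter by detection p and a block for slide were not run because the files used here hold neither. Probes of 12 members too dim to test, and of 12 tested members under background on every array, cannot show whether those genes changed.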
